A study of Mus musculus with 18 samples.

Results

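Uxs1, Cabp7, Baalc, Adtrp and Tnr are 5 mouse genes whose mRNA levels differed between pituitary of wild-type mice and pituitary of both knockouts examined, the knockout of the long noncoding RNA MIR205HG and the knockout of the microRNA miR-205. They were picked because both of these pituitary comparisons passed a threshold for them, so their pituitary knockout values describe the choice and carry no test here. Each gene was read by 1 probe set (a group of short DNA probes for 1 transcript), and these are 5 of 19505 genes, which 19572 of the 22206 probe sets of the array name. RNA from pituitary and ear skin was measured on 18 Clariom S arrays (Affymetrix), 3 per group. The 6 groups were lncKO pituitary (arrays 13, 14 and 15), miR-205 KO pituitary (16, 17 and 18), wt pituitary (10, 11 and 12), lncKO skin (4, 5 and 6), miR-205 KO skin (7, 8 and 9) and wt skin (1, 2 and 3). The lncKO mice are knockouts of MIR205HG, the miR-205 KO mice are knockouts of the microRNA encoded at the same locus, and wt mice carry neither change. All mice were C57BL/6, labelled as female and 5 to 6 weeks old, and no treatment was given. The sources used here do not give how the alleles were made or whether a sample was 1 animal.

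The 5 genes belong to unrelated processes. Uxs1 encodes the Golgi enzyme that makes UDP-xylose, the sugar donor from which the glycosaminoglycan chains of proteoglycans are started. Cabp7 encodes a calmodulin-like calcium sensor of the Golgi (calneuron 2). Baalc encodes a small membrane-anchored protein first known from brain and human acute leukaemia, where it binds the kinase MAP3K1 and favours ERK signalling. Adtrp encodes a membrane hydrolase of fatty acid esters of hydroxy fatty acids (FAHFAs), described in human endothelial cells as an androgen-dependent regulator of tissue factor pathway inhibitor. Tnr encodes tenascin-R, a glycoprotein of the brain extracellular matrix that is made by oligodendrocytes and some neurons and takes part in perineuronal nets. The pituitary joins an anterior lobe of hormone cells and an intermediate lobe to a posterior lobe of nerve endings and glia.

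The microRNA that one of the knockouts lacks is shown with its seed, bases 2 to 8, in capitals, and lies on chr1:193507503-193507524, minus strand (RefSeq, GRCm38.p6). The promoters of the genes with an entry in the RefSeq table (GRCm38.p6; 4 of 5 genes, all but Baalc) follow, because the genes moved in parallel in the 2 knockouts, as windows of 250 bases before to 50 bases from the start site. They lie on chr1:43827790-43828089 (Uxs1, minus strand), chr11:4747130-4747429 (Cabp7, minus strand), chr13:41847439-41847738 (Adtrp, minus strand, the second of 2 annotated starts) and chr1:159523519-159523818 (Tnr, plus strand). Capitals mark GC boxes (GGGCGG) in Uxs1 and Cabp7 and E-boxes (CACGTG) in Adtrp.
mmu-miR-205-5p: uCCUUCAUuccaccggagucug
Uxs1 promoter: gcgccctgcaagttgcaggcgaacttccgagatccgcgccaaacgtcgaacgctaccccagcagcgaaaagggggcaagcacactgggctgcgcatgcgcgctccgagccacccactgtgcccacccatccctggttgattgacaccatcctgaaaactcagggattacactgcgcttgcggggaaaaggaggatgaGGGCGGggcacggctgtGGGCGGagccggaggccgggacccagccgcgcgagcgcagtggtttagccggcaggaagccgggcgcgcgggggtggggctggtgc
Cabp7 promoter: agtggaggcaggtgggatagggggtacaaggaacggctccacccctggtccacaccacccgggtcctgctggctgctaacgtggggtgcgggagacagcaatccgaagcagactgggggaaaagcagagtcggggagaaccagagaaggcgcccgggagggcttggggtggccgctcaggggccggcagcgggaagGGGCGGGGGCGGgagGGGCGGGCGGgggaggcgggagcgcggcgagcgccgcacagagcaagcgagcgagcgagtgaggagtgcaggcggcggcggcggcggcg
Adtrp promoter: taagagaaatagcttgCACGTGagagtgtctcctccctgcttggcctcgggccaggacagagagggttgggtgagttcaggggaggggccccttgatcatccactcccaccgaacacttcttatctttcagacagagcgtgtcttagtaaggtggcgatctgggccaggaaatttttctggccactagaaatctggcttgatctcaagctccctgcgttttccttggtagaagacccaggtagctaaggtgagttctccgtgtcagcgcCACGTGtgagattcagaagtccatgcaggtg
Tnr promoter: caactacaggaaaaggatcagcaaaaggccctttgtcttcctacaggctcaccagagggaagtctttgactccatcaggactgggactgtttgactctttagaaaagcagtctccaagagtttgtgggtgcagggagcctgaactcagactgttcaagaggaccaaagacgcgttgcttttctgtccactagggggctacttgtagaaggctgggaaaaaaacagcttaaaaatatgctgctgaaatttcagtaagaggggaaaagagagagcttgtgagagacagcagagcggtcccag

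Both strands were searched for the GC box (GGGCGG), the E-box (CACGTG), the TATA box (TATAAA), the CCAAT box (CCAAT) and the cyclic AMP response element (TGACGTCA). There were 2 GC boxes in the Uxs1 window and 4 in the Cabp7 window, some of which overlap each other. Of 32851 promoter windows of the same length, 35.7% held a GC box, so these matches are common. Adtrp had 2 E-boxes in the window printed. The window of its other start (chr13:41847567-41847866) overlaps it and held only the first of these. Of all windows, 7.15% held an E-box. None of the motifs was found in the Tnr window, and the TATA box (13.6% of all windows), the CCAAT box (37.4%) and the cyclic AMP response element (1.79%) were found in none of the windows of these 4 genes. The GC content of the windows was 67.7% for Uxs1, 73.0% for Cabp7, 53.3% for Adtrp and 48.0% for Tnr, beside a median of 52.7% over all windows. A match is a description of the letters and not a site in use.

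The deposited values are linear intensities, and the arrays had medians between 82 and 96. An intensity of 16 or less, taken here as near background, was found for 22.8% to 25.3% of the probe sets of an array. All 10 markers of anterior lobe hormone cells were higher in wt pituitary than in wt skin (limma, adjusted p under 0.05), and the summed intensity of 6 keratinocyte markers was 99 to 129 on pituitary arrays against 567803 to 1055599 on skin arrays. Of 8 posterior lobe markers, Nkx2-1 was at or under 16 on every pituitary array. Although all mice are labelled female, the Y-linked gene Uty lay between 1869 and 2339 on the 9 pituitary arrays and between 6 and 13 on the 9 skin arrays. Kdm5d and Eif2s3y were split between the tissues in the same way. No probe set with a symbol measures MIR205HG or miR-205, so the knockouts could not be checked at their own locus.

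Uxs1 and Cabp7 were higher in both pituitary knockouts. The intensity of Uxs1 was 2732, 3068 and 2694 in lncKO pituitary and 1761, 2505 and 2307 in miR-205 KO pituitary, against 925, 843 and 911 in wt pituitary. Every knockout array lay above every wt array, and the 3 wt arrays lay close together. The log2 fold change was 1.66 ± 0.18 in lncKO (3.17-fold) and 1.28 ± 0.18 in miR-205 KO (2.43-fold; SE from limma, n = 3 arrays per group). The intensity of Cabp7 was 43, 50 and 54 in lncKO pituitary and 43, 71 and 62 in miR-205 KO pituitary, against 21, 22 and 21 in wt pituitary. The knockout arrays of this calcium sensor gene all lay above its wt arrays, which were little above 16. Its log2 fold change was 1.19 ± 0.20 in lncKO (2.29-fold) and 1.43 ± 0.20 in miR-205 KO (2.69-fold). With 16 added to every intensity before the log2, these differences came to 0.80 and 0.98.

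Baalc, Adtrp and Tnr were lower in both pituitary knockouts. The intensity of Baalc was 308, 224 and 155 in lncKO pituitary and 158, 288 and 331 in miR-205 KO pituitary, against 835, 1284 and 1310 in wt pituitary. Its knockout arrays were more scattered than those of the other genes, yet the highest of them stayed well under the lowest wt array. The log2 fold change was -2.35 ± 0.32 in lncKO (5.08-fold lower) and -2.18 ± 0.32 in miR-205 KO (4.53-fold lower), which made Baalc the gene with the largest difference of the 5 in both knockouts. Adtrp lay at 100, 112 and 109 in lncKO pituitary and at 204, 115 and 113 in miR-205 KO pituitary, against 342, 371 and 460 in wt pituitary. In miR-205 KO pituitary 1 array, number 16, stood above the remaining ones of the group and still below wt. For this lipid hydrolase the log2 fold change was -1.86 ± 0.23 in lncKO (3.63-fold lower) and -1.49 ± 0.23 in miR-205 KO (2.80-fold lower), and it was -1.77 in miR-205 KO with array 16 left out. Tnr lay at 1195, 1476 and 1420 in lncKO pituitary and at 1280, 1483 and 978 in miR-205 KO pituitary, against 2585, 2888 and 2754 in wt pituitary. The wt arrays of this matrix gene differed little among themselves. Its log2 fold change was -1.01 ± 0.19 in lncKO (2.02-fold lower) and -1.16 ± 0.19 in miR-205 KO (2.23-fold lower).

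**Figure D1:**
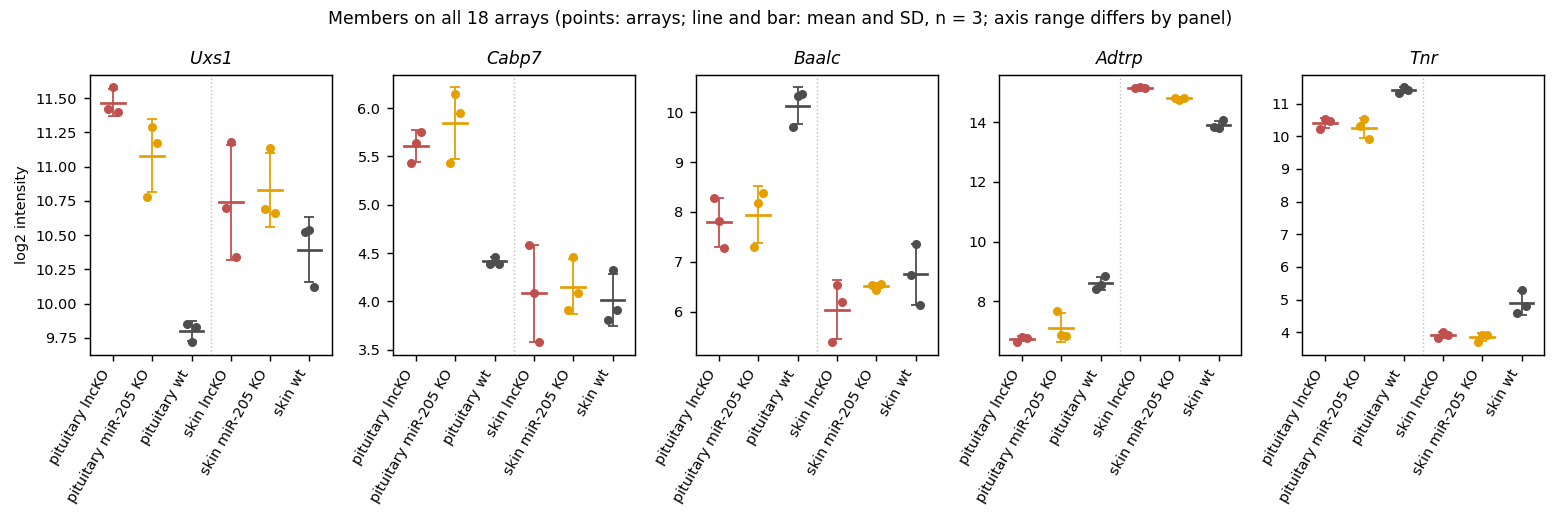
Log2 intensity of the 5 genes (1 panel each, with its own axis range) on all 18 arrays by tissue and genotype, with points for arrays and lines and bars for mean and SD (n = 3). In pituitary both knockouts lie above wt for Uxs1 and Cabp7 and below wt for Baalc, Adtrp and Tnr, and in skin Adtrp lies the other way, above wt in both knockouts.

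In both pituitary comparisons the knockout and wt arrays of all 5 genes did not overlap, which was the case for 16.8% of the 19572 probe sets in lncKO against wt and for 10.5% in miR-205 KO against wt. At an adjusted p under 0.05 in limma, 0.700% of the probe sets (137) passed in lncKO against wt and 0.107% (21) in miR-205 KO against wt. These shares are given as background only, since the genes were chosen on these comparisons, which also share the 3 wt arrays. In all, 6 probe sets passed in both comparisons, each in the same direction in both, and the sixth was Fzd6. Just inside the threshold stood Tnr. The nearest genes outside it were Obp2a, with log2 fold changes of -0.77 in lncKO and -1.22 in miR-205 KO, Slc8a2 with 1.10 and 1.36 in the same order, and Cthrc1 with -0.96 and -1.37. In these bulk samples, fewer cells of a type and less RNA per cell cannot be told apart.

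Markers of other cell types were read on the same pituitary arrays, and 1 gene of each of 3 lists passed in lncKO. Summed over 5 markers of stem and folliculostellate cells, the intensity was 6261 to 7489 in lncKO and 4702 to 5303 in miR-205 KO, against 3757 to 4344 in wt, and of these Sox2 rose in lncKO (1.07 ± 0.18, adjusted p = 0.0204, limma). Tbx19, a factor of corticotrophs and melanotrophs, rose in lncKO as well (1.69 ± 0.27, adjusted p = 0.0171), as did the corticotroph receptor gene Crhr1 (1.01 ± 0.19, adjusted p = 0.0358). In the same lists Pomc (0.12 ± 0.26) and Pax7 (0.13 ± 0.26) did not pass in lncKO. The lncKO sums overlapped wt, at 233416 to 374357 against 203762 to 327025 for melanotroph markers and 3015065 to 3627738 against 3007510 to 3218393 for hormone cell markers. The Sox2 call ended without array 10, 11, 12, 13 or 14, that of Tbx19 without 12, 14 or 15 and that of Crhr1 without 11, 12, 13, 14 or 15. All 3 calls also ended with values under 16 set to 16 and in a fit of only the groups compared, and that of Crhr1 in a fit of all 18 arrays as well. Over these settings the adjusted p was 0.0569 to 0.0951 for Sox2, 0.0534 to 0.117 for Tbx19 and 0.0700 to 0.154 for Crhr1. All pituitary values of these 3 genes lay above 16, so setting values under 16 to 16 changed only other probe sets of the fit. No gene of any marker list passed in miR-205 KO against wt. For Tnr the lists of interest are those of oligodendrocytes with their precursors and of neurons. Of the first list 0 of 9 measured markers passed in either knockout. Of these 9, 2 (Mog and Olig1) were at or under 16 on every pituitary array. Olig2 lay at 24 to 41 in lncKO, 17 to 30 in miR-205 KO and 22 to 29 in wt. Mbp lay at 441 to 2362 in lncKO, 578 to 1737 in miR-205 KO and 312 to 946 in wt. The summed intensity of the list was 715 to 2623 in lncKO and 889 to 2090 in miR-205 KO against 553 to 1187 in wt. The sums of the 3 groups overlapped. Of 8 neuron markers 0 passed in either knockout pituitary, with a median log2 fold change of 0.00 in lncKO and 0.15 in miR-205 KO. They ranged from -1.02 (Slc17a6) to 0.76 in lncKO and from -0.18 to 0.59 in miR-205 KO, where Slc17a6 was at 0.31. Of 8 posterior lobe markers 0 passed, with sums of 6854 to 10379 in lncKO and 4708 to 5157 in miR-205 KO against 5619 to 6606 in wt. Most of these sums was Scn7a, at 6077 to 9206 in lncKO and 4018 to 4552 in miR-205 KO against 4936 to 5987 in wt. The median log2 fold change of the 8 markers was 0.44 in lncKO and 0.08 in miR-205 KO, so the sums do not stand for the list. The part of any of these lists in the differences of the 5 genes was not tested.

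The 2 knockouts could be set against each other in pituitary, a comparison that the choice of genes did not use although the same arrays entered it. None of the 5 genes passed the limma test in lncKO against miR-205 KO, where 0.291% of all probe sets did. The log2 difference of Uxs1 was 0.38 ± 0.18, with a 95% interval of 0.00 to 0.77 (adjusted p = 0.448), and its lncKO arrays all lay above its miR-205 KO arrays. For Adtrp it was -0.37 ± 0.23 (interval -0.88 to 0.13, adjusted p = 0.592), again with arrays that did not overlap. The arrays of the other three genes overlapped. The difference was -0.24 ± 0.20 for Cabp7 (interval -0.67 to 0.20, adjusted p = 0.719), -0.16 ± 0.32 for Baalc (interval -0.85 to 0.52, adjusted p = 0.902) and 0.14 ± 0.19 for Tnr (interval -0.27 to 0.55, adjusted p = 0.833). Each interval reaches at least 0.55 away from 0 on the log2 scale, so the knockouts are not shown to act alike on these genes.

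Skin arrays played no part in the choice of the genes, and there 2 of the 5 passed in each knockout. Against wt skin, Adtrp was up and Tnr down in lncKO as well as in miR-205 KO, whereas Uxs1, Cabp7 and Baalc did not pass. Of all probe sets, 15.4% passed in lncKO skin against wt skin and 16.8% in miR-205 KO skin against wt skin, so 2 of 5 is to be read against a high background. Both comparisons share the 3 wt skin arrays.

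Adtrp was bright in skin, at intensities of 36249, 37130 and 36010 in lncKO and 29125, 27776 and 29050 in miR-205 KO, against 14564, 14426 and 17293 in wt. Arrays of each genotype lay close together and no genotype overlapped another. The log2 fold change was 1.25 ± 0.19 in lncKO (2.37-fold, adjusted p = 0.00164, limma) and 0.90 ± 0.19 in miR-205 KO (1.86-fold, adjusted p = 0.00871). Thus the FAHFA hydrolase gene was higher in the skin of the same genotypes in whose pituitary it was lower, and the difference between the tissues was not tested because the pituitary values chose the gene. Keratinocyte markers summed to 897344 to 983682 in lncKO and 918813 to 1055599 in miR-205 KO skin, against 567803 to 702908 in wt skin, with 1 of 6 passing in each knockout. It was Krt10, at 619688 to 678979 in lncKO and 620055 to 753341 in miR-205 KO, against 314730 to 355555 in wt. The median log2 fold change of the 6 markers was 0.12 in lncKO and 0.15 in miR-205 KO, so the sums do not stand for the list. Adipocyte markers summed to 25987 to 46482 in lncKO and 22461 to 42905 in miR-205 KO, against 8737 to 26420 in wt, with 2 of 4 passing in each. Cartilage markers, of which 2 of 4 passed in each, summed to 35579 to 66934 and 43842 to 58872, against 11203 to 14891. Skeletal muscle markers summed to 38236 to 131904 in lncKO and 55453 to 101983 in miR-205 KO, against 36486 to 82892 in wt, with 1 of 5 passing in lncKO and 2 in miR-205 KO. Whether any of these plays a part in the Adtrp values was not tested.

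Tnr was near background in skin, with intensities of 14, 16 and 15 in lncKO and 13, 15 and 15 in miR-205 KO, against 24, 39 and 28 in wt. Every knockout array lay at or under 16 and every wt array above it, so the level in knockout skin is known only as a bound. The log2 fold change was -0.99 ± 0.23 in lncKO (adjusted p = 0.0121, limma) and -1.05 ± 0.23 in miR-205 KO (adjusted p = 0.00820), and it was -0.89 in both with values under 16 set to 16. With 16 added to every intensity it was -0.57 in lncKO and -0.60 in miR-205 KO. A filter that left out dim probe sets removed Tnr from the skin tests. Of 8 neuron markers, 7 fell in each knockout of skin, with a summed intensity of 740 to 1216 in lncKO and 568 to 912 in miR-205 KO against 1275 to 5182 in wt. Most of these sums was Stmn2, at 651 to 1132 in lncKO and 478 to 811 in miR-205 KO against 1072 to 5003 in wt. The other markers that fell were dim in skin. The brightest of them was Tubb3, at 19 to 23 in lncKO and 19 to 24 in miR-205 KO against 38 to 66 in wt. Markers of pituitary hormone cells differed between the skin groups too. Of 10 such markers, 1 rose and 1 fell in lncKO, and 1 rose and 2 fell in miR-205 KO. Their sums were 182 to 199 in lncKO and 165 to 211 in miR-205 KO against 221 to 2755 in wt. The gene that rose in both was Tshb, at 37 to 59 in lncKO and 40 to 63 in miR-205 KO against 16 to 24 in wt. The growth hormone gene Gh fell in both, at 7 to 9 in lncKO and 9 to 15 in miR-205 KO, against 29 to 2501 in wt skin. The prolactin gene Prl lay at 10 to 13 in lncKO and 7 to 13 in miR-205 KO, against 14 to 72. It passed only in miR-205 KO (adjusted p = 0.0454, limma, against 0.0745 in lncKO). The part of either list in the Tnr values was not tested.

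The remaining genes gave smaller differences in skin. Uxs1 lay at 1669, 2328 and 1293 in lncKO and 1651, 2253 and 1613 in miR-205 KO, against 1473, 1492 and 1114 in wt. Its log2 fold changes were 0.35 ± 0.26 in lncKO (adjusted p = 0.390, limma) and 0.43 ± 0.26 in miR-205 KO (adjusted p = 0.273), and neither passed, although the arrays of miR-205 KO and wt did not overlap. Baalc lay at 42, 93 and 73 in lncKO and 93, 87 and 94 in miR-205 KO, against 107, 164 and 70 in wt. The wt arrays of this gene alone differed by more than the genotypes did. Its log2 fold change was -0.70 ± 0.33 in lncKO (adjusted p = 0.169) and -0.23 ± 0.33 in miR-205 KO (adjusted p = 0.673). Cabp7 was near background, at 24, 17 and 12 in lncKO and 15, 22 and 17 in miR-205 KO, against 14, 20 and 15 in wt, and no order can be read from these values (0.07 ± 0.28, adjusted p = 0.887, and 0.14 ± 0.28, adjusted p = 0.772, in the same order of knockouts). In lncKO skin against miR-205 KO skin none of the 5 genes passed (adjusted p = 1 for each), and neither did any other probe set: limma called 0 of 19572 (0%). The smallest adjusted p was 0.290, and an unadjusted p under 0.05 was reached by 637 probe sets. Of the 5 genes only Adtrp had arrays apart there, with a log2 difference of 0.35 ± 0.19 and a 95% interval of -0.07 to 0.77.

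**Figure D2:**
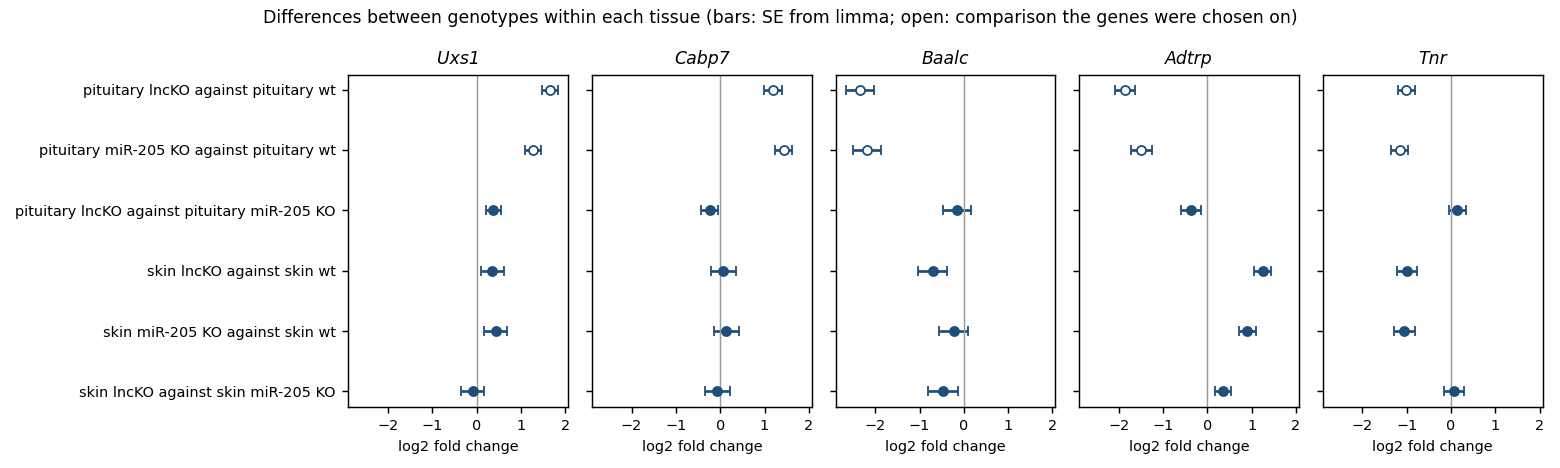
Log2 fold change of the 5 genes (1 panel each) in 6 comparisons within a tissue, with bars for the SE from limma and open circles for the 2 comparisons on which the genes were chosen. Adtrp is at -1.86 and -1.49 in the knockout pituitaries and at 1.25 and 0.90 in the knockout skins, and between the 2 knockouts none of the 5 genes passed in either tissue.

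The order of levels across the 6 groups differed from gene to gene. Since Y-linked genes split the arrays by tissue, as given above, tissue and sex of the animals cannot be told apart in the comparisons between tissues. Uxs1 was highest in lncKO pituitary and lowest in wt pituitary, and miR-205 KO pituitary and the 3 skin groups lay between them and overlapped in a chain. In lncKO its level was higher in pituitary than in skin (0.72 ± 0.22, adjusted p = 0.00808, limma over all 18 arrays), in miR-205 KO the tissues did not pass (0.25 ± 0.22, adjusted p = 0.336), and in wt it was lower in pituitary (-0.60 ± 0.22, adjusted p = 0.0295). The call in lncKO ended without skin array 6 (adjusted p = 0.0634), and that in wt with any of skin arrays 1 and 2 or pituitary arrays 10, 11 and 12 left out (adjusted p = 0.0509 to 0.0944). Cabp7 was highest in the knockout pituitaries, which overlapped each other, and its 4 remaining groups overlapped in a chain from wt pituitary down to wt skin. Between the tissues it passed in lncKO (1.52 ± 0.25, adjusted p = 1.98e-05) and in miR-205 KO (1.69 ± 0.25, adjusted p = 5.06e-06) and not in wt (0.40 ± 0.25, adjusted p = 0.190). Its skin values are near background, and with 16 added to every intensity these differences came to 0.96 in lncKO and 1.12 in miR-205 KO.

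Baalc, Adtrp and Tnr kept one direction between the tissues in every genotype. Baalc was higher in pituitary than in skin by 1.74 ± 0.35 in lncKO (adjusted p = 1.89e-04), 1.44 ± 0.35 in miR-205 KO (adjusted p = 0.00119) and 3.39 ± 0.35 in wt (10.5-fold, adjusted p = 4.02e-08). Below wt pituitary, all neighbours in the order of its groups overlapped. Adtrp was lower in pituitary than in skin by 341-fold in lncKO (-8.41 ± 0.21), 207-fold in miR-205 KO (-7.69 ± 0.21) and 39.6-fold in wt (-5.31 ± 0.21; adjusted p at most 9.05e-15), and no neighbouring pair of its 6 groups overlapped. Tnr was higher in pituitary by 6.50 ± 0.20 in lncKO, 6.43 ± 0.20 in miR-205 KO and 6.53 ± 0.20 in wt on the log2 scale (adjusted p at most 2.24e-16). With values under 16 set to 16 it was higher by at least 6.41 in lncKO and 6.26 in miR-205 KO. Among its neighbours only the 2 knockouts of a tissue overlapped. The tissue comparison was passed by 5 of the 5 genes in lncKO, 4 in miR-205 KO and 4 in wt, where 59.9%, 61.4% and 52.1% of all probe sets passed. The pituitary arrays in these comparisons are those on which the genes were chosen.

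The genes that work with the 5 were read in pituitary as well, where 0.700% of all probe sets passed in lncKO and 0.107% in miR-205 KO, so that 0 or 1 call in a list is near the background. Of 21 measured genes of UDP-xylose synthesis and use, 1 rose in lncKO pituitary and 0 passed in miR-205 KO, with a median log2 fold change of 0.06 and 0.02 beside 0.01 over all probe sets in both. The one that rose was B3galt6, the galactosyltransferase that adds the third sugar of the glycosaminoglycan linker (118 to 190 in lncKO against 68 to 74 in wt, 1.12 ± 0.19, adjusted p = 0.0204, limma). Ugdh, which makes the UDP-glucuronate that Uxs1 converts, gave 0.08 ± 0.20 and 0.14 ± 0.20. Of 18 calcium sensors of the calmodulin group 0 passed in either knockout, with medians of 0.21 and 0.13. Among them Caln1, the closest relative of Cabp7, had 24 to 69 in lncKO and 35 to 64 in miR-205 KO, against 25 to 29 in wt (adjusted p = 0.664 and 0.668). Of 10 partners of Baalc and genes of the ERK pathway, 1 rose in lncKO and 0 passed in miR-205 KO, with medians of 0.20 and 0.31. It was Dusp6, an ERK phosphatase whose transcription follows ERK activity (331 to 540 in lncKO against 148 to 237 in wt, 1.31 ± 0.24, adjusted p = 0.0297). Dusp6 was 254 to 336 in miR-205 KO (0.69 ± 0.24, adjusted p = 0.556), above wt on every array without passing.

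Of 7 FAHFA hydrolases and genes of the tissue factor pathway 0 passed in either knockout pituitary, with medians of 0.00 and 0.14. Aig1, the second FAHFA hydrolase of this type, had 596 to 656 in lncKO and 578 to 656 in miR-205 KO, against 778 to 842 in wt (-0.34 ± 0.15, adjusted p = 0.390, and -0.39 ± 0.15, adjusted p = 0.608, limma). Of 16 tenascins and genes of the perineuronal matrix, 1 fell in lncKO and 0 passed in miR-205 KO, with medians of 0.12 and 0.16. It was Hapln1, a link protein that joins hyaluronan to proteoglycans (104 to 247 in lncKO against 573 to 783 in wt, -2.11 ± 0.38, adjusted p = 0.0297). Its values in miR-205 KO were 169 to 527 (-1.13 ± 0.38, adjusted p = 0.549), again below every wt array. Hapln4, another link protein, was the only gene of these lists past the threshold in lncKO against miR-205 KO pituitary (18 to 37 in lncKO against 77 to 116 in miR-205 KO, -1.79 ± 0.31, adjusted p = 0.0434). Each of these single calls rests on few arrays. That of B3galt6 ended without array 10, 11, 12, 13 or 14 (adjusted p = 0.0572 to 0.0917), that of Dusp6 without 11, 12, 13 or 15 (0.101 to 0.134), that of Hapln1 without 10, 11, 12, 13 or 14 (0.0660 to 0.126) and that of Hapln4 without any one of arrays 13 to 18 (0.0724 to 0.159). All 4 also ended with values under 16 set to 16 (adjusted p = 0.164 for Hapln1 and up to 0.190 for Hapln4, and lower for B3galt6 and Dusp6). The values of all 4 in the groups compared lay above 16, so this setting left their log2 fold changes as they were. The calls of B3galt6, Dusp6 and Hapln4 ended as well with only the groups compared in the fit, and that of B3galt6 also in a fit of all 18 arrays.

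**Figure D3:**
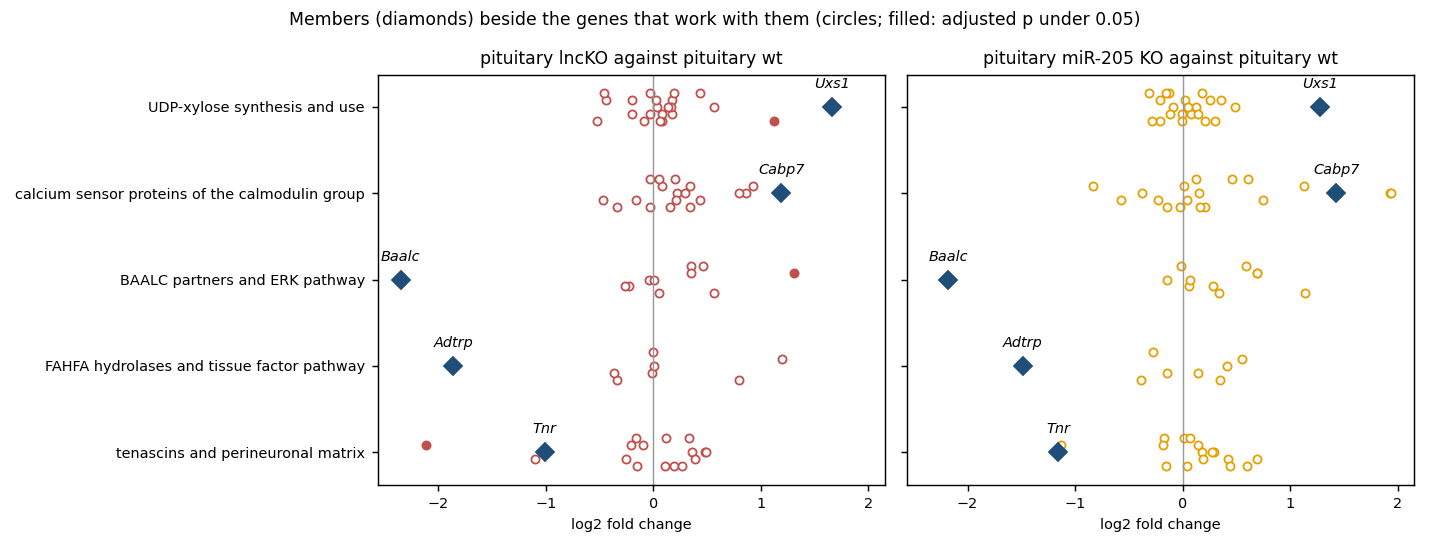
Log2 fold change against wt in lncKO pituitary (left) and miR-205 KO pituitary (right) of the 5 genes (diamonds) and of the genes that work with them (circles, filled where the adjusted p from limma is under 0.05), 1 line per list. Most circles lie near 0, and the filled ones are B3galt6 (1.12), Dusp6 (1.31) and Hapln1 (-2.11) in lncKO.

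In skin, where 15.4% of all probe sets passed in lncKO and 16.8% in miR-205 KO, the same lists held calls in both directions, and their number is not read as a result about the lists. Of the UDP-xylose genes B3gat3, which completes the linker with glucuronate, fell in lncKO (-0.94 ± 0.28, adjusted p = 0.0382, limma) and Large2, which builds a xylose-containing glycan on dystroglycan, fell in miR-205 KO (-1.16 ± 0.34, adjusted p = 0.0346). Both calls are fragile: that of B3gat3 ended without array 1, 2, 3, 4 or 5 (adjusted p = 0.0510 to 0.140) and that of Large2 without 2, 3, 7 or 9 (0.0540 to 0.121). The B3gat3 call also ended with quantile normalization, centring on the median, values under 16 set to 16 and only the groups compared in the fit. With values under 16 set to 16 and with 16 added to every intensity the Large2 call ended too (adjusted p up to 0.123). Of the calcium sensors Calm2, a calmodulin gene, rose in lncKO (0.98 ± 0.23, adjusted p = 0.0142) and in miR-205 KO (0.83 ± 0.23, adjusted p = 0.0274), and Kcnip1, a subunit of potassium channels, fell in lncKO (-1.12 ± 0.20, adjusted p = 0.00380) and in miR-205 KO (-1.29 ± 0.20, adjusted p = 0.00174). Kcnip1 lay at 12 to 16 in knockout skin against 29 to 32 in wt skin, near background. Rcvrn rose (0.67 ± 0.21, adjusted p = 0.0492) and Hpcal4 fell (-0.86 ± 0.22, adjusted p = 0.0183) in lncKO, and Hpcal1, a neuronal calcium sensor, fell in miR-205 KO (-1.27 ± 0.23, adjusted p = 0.00354). Leaving out array 4 ended the call of Calm2 in lncKO (0.0569), and array 2, 3, 7, 8 or 9 that in miR-205 KO (0.0547 to 0.104), and quantile normalization ended both (0.0684 in lncKO and 0.175 in miR-205 KO). That of Rcvrn ended without any one of arrays 1 to 6 (0.0661 to 0.138) and that of Hpcal4 without 2, 3 or 5 (0.0514 to 0.0572). The Rcvrn call also ended with a variance trend with robust estimation and with only the groups compared in the fit.

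Among the genes tied to Baalc, the ERK phosphatase gene Dusp5 fell in lncKO skin (220 to 371 against 633 to 739 in wt, -1.28 ± 0.23, adjusted p = 0.00348, limma) and in miR-205 KO skin (283 to 323, -1.20 ± 0.23, adjusted p = 0.00470). Map3k1, the kinase that Baalc binds, fell in miR-205 KO skin (-0.85 ± 0.23, adjusted p = 0.0221), a call that ended without array 1 or 7 (0.0610 to 0.0972), and it gave -0.62 ± 0.23 in lncKO skin (adjusted p = 0.0826). In the list around Adtrp, Cel, a lipase that hydrolyses FAHFAs, rose in lncKO (24 to 37 against 10 to 12 in wt, 1.39 ± 0.24, adjusted p = 0.00265) and in miR-205 KO (21 to 29, 1.05 ± 0.24, adjusted p = 0.0102), where the second call ended with values under 16 set to 16 (0.119). Tfpi2, a protease inhibitor related to the tissue factor pathway inhibitor, rose (0.68 ± 0.21, adjusted p = 0.0459, in lncKO and 0.85 ± 0.21, adjusted p = 0.0175, in miR-205 KO) and the clotting factor gene F10 fell (-0.97 ± 0.27, adjusted p = 0.0288, and -1.13 ± 0.27, adjusted p = 0.0139, in the same order). Cel and Tfpi2 stayed under 40 on all skin arrays, where values near background weigh. Tfpi2 lost its call in lncKO without array 1, 2, 3, 4 or 6 (0.0774 to 0.133) and in miR-205 KO without 7 or 9 (0.0560 to 0.0711), and F10 in lncKO without 1, 4, 5 or 6 (0.0563 to 0.0916) and in miR-205 KO without 9 (0.0570). In lncKO both also lost it with only the groups compared in the fit. There Tfpi2 lost it too with 16 added to every intensity and with a variance trend. F10 did so with centring on the median and with values under 16 set to 16.

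Of the 16 matrix genes listed with Tnr, 4 passed in lncKO skin (3 up, 1 down) and 7 in miR-205 KO skin (4 up, 3 down), beside 15.4% and 16.8% of all probe sets. Acan, the aggrecan gene that is also a cartilage marker, rose most (9429 to 18981 in lncKO and 11962 to 17017 in miR-205 KO, against 1097 to 3284 in wt), by 2.85 ± 0.37 (adjusted p = 5.18e-04, limma) and 3.01 ± 0.37 (adjusted p = 3.69e-04). Summed over 4 cartilage markers, of which Acan is one, the intensity was 35579 to 66934 in lncKO and 43842 to 58872 in miR-205 KO, against 11203 to 14891 in wt skin. Has2, a hyaluronan synthase gene, rose by 1.35 ± 0.43 (adjusted p = 0.0484) and 1.69 ± 0.43 (adjusted p = 0.0177), and the link protein gene Hapln2 by 0.81 ± 0.22 in both (adjusted p = 0.0285 and 0.0260). Bcan, the brevican gene of brain matrix, fell by 1.12 ± 0.22 in lncKO (adjusted p = 0.00550) and by 0.95 ± 0.22 in miR-205 KO (adjusted p = 0.0115), at 9 to 14 in the knockouts against 22 to 25 in wt. The call of Has2 ended in lncKO without array 2, 3, 4, 5 or 6 (0.0684 to 0.136) and in miR-205 KO without 7 (0.0673), that of Hapln2 in lncKO without 2, 3, 4, 5 or 6 (0.0515 to 0.0987) and in miR-205 KO without 2, 3, 7 or 8 (0.0577 to 0.0948), and that of Bcan in miR-205 KO without 7 (0.0559). With values under 16 set to 16 the Has2 and Hapln2 calls ended in both knockouts. In lncKO they also ended with 16 added to every intensity and with only the groups compared in the fit. Over all these settings the adjusted p in lncKO reached 0.177 for Has2 and 0.127 for Hapln2.

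For each of the 5 genes, the 3 genes most like it in pattern were sought by Pearson correlation of log2 intensity over the 9 pituitary arrays, among 16686 other probe sets with at least 1 pituitary array above an intensity of 16. Because these arrays hold the differences that chose the genes, and are all of pituitary, the r values describe the pattern and carry no test. Uxs1 was followed most closely by Btbd9 (r = 0.966), Carhsp1 (0.963) and Ahcyl2 (0.947). Nearest to Cabp7 were Angpt1, an angiopoietin gene (0.977), the chromosome condensation gene Mcph1 (0.967) and Ttc27 (0.961). Baalc had Zfp667 (0.960), Rufy4 (0.958) and the RNA-binding protein gene Pcbp4 (0.956), and Adtrp had Rtp1 (0.952), Sec16b (0.935) and Nanp (0.933). Tnr had Gnb3 (0.930), Fzd6 (0.928) and Pus10 (0.920). Rtp1 lay at 10 to 12 in lncKO and 9 to 13 in miR-205 KO against 17 to 20 in wt, near background. All of these but Fzd6 had smaller log2 fold changes in both knockouts than the gene they followed. Gnb3, a G protein subunit gene, differed from wt by -0.25 ± 0.15 in lncKO and -0.24 ± 0.15 in miR-205 KO. Over all 18 arrays the likeness held for some pairs, as for Tnr with Gnb3 (r = 0.993), and turned for others, as for Tnr with Pus10 (-0.948) and Adtrp with Rtp1 (-0.724).

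Fzd6, the only gene besides the 5 that passed in both pituitary comparisons, is the next measured gene after Baalc on chromosome 15. It encodes a frizzled receptor for Wnt proteins. Its intensity was 515, 340 and 560 in lncKO pituitary and 377, 352 and 260 in miR-205 KO pituitary, against 1378, 1287 and 1224 in wt pituitary, with no overlap of either knockout with wt. The log2 fold change was -1.49 ± 0.22 in lncKO (adjusted p = 0.0123, limma) and -1.99 ± 0.22 in miR-205 KO (adjusted p = 0.00479). The first call ended without wt array 12 (adjusted p = 0.0563), and both ended with values under 16 set to 16 (0.0758 and 0.117). All pituitary values of Fzd6 lay above 16, so that setting left them as they were and changed only other probe sets of the fit. In skin, whose arrays did not enter that choice, Fzd6 fell to 1364, 977 and 1180 in lncKO and 1359, 1127 and 997 in miR-205 KO, against 2501, 2299 and 2465 in wt (-1.06 ± 0.22, adjusted p = 0.00724, and -1.07 ± 0.22, adjusted p = 0.00628). Baalc itself, as given above, did not pass in skin.

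After this was seen, the 5 nearest measured genes on each side of each of the 5 genes were looked up in the order of the RefSeq table, 50 genes in all. Fzd6, which prompted the search, is one of them, so the counts are not read as a result about neighbours. Shares over all probe sets are given beside them as background only. Besides it, no neighbour passed in miR-205 KO pituitary and 1 in lncKO pituitary, Mak, a kinase gene near Adtrp (68 to 82 against 133 to 135 in wt, -0.86 ± 0.17, adjusted p = 0.0455, limma). The Mak call ended in 10 of 15 alternatives (adjusted p = 0.0531 to 0.170), among them each that left out 1 of arrays 10 to 15. Cthrc1, a collagen triple helix protein gene and the second after Baalc, lay at 34 to 38 in lncKO and 26 to 30 in miR-205 KO, against 52 to 111 in wt, and did not pass (-0.96 ± 0.25, adjusted p = 0.113, and -1.37 ± 0.25, adjusted p = 0.0889). In skin Cthrc1 fell in both knockouts (-1.69 ± 0.40, adjusted p = 0.0139, and -2.11 ± 0.40, adjusted p = 0.00450), the first call ending without array 4 (0.0556) and with values under 16 set to 16 (0.0846). The skin values of Cthrc1 all lay above 16, so that setting did not change them. Pappa2, near Tnr, gave -1.55 ± 0.34 in lncKO and -1.32 ± 0.34 in miR-205 KO pituitary (adjusted p = 0.0637 and 0.347, limma). Sec16b, also near Tnr and named above as like Adtrp in pattern, gave -0.98 ± 0.20 and -0.75 ± 0.20 (adjusted p = 0.0533 and 0.39). All 10 neighbours of Uxs1 stayed between -0.82 and 0.54 and all 10 of Cabp7 between -0.25 and 0.58 in both knockouts, and none of them passed. In skin, 13 of the 50 neighbours passed in lncKO and 9 in miR-205 KO, Fzd6 included, where 15.4% and 16.8% of all probe sets passed.

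**Figure D4:**
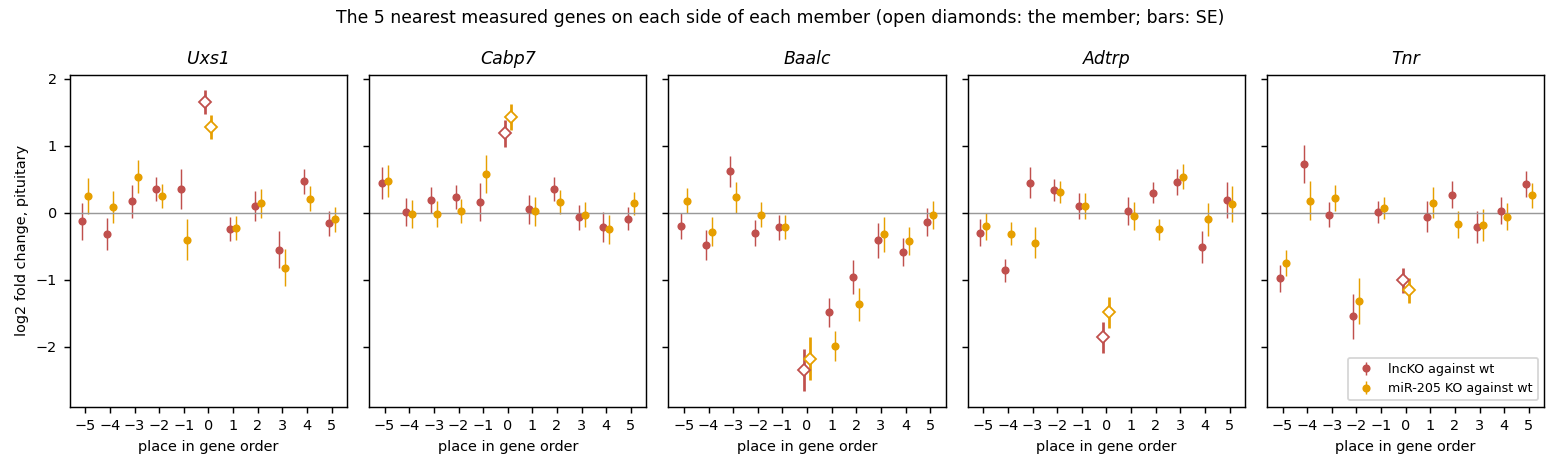
Log2 fold change against wt in pituitary of the 5 nearest measured genes on each side of Uxs1, Cabp7, Baalc, Adtrp and Tnr by their place in gene order, with bars for the SE and open diamonds for the gene itself. Uxs1 and Cabp7 stand alone among their neighbours, whereas Fzd6 (-1.49 and -1.99) and Cthrc1 (-0.96 and -1.37) at places 1 and 2 after Baalc lie below 0 with it.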

How the data were processed

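The authors deposited linear, whole-number intensities, 1 for each probe set on each array. Per the labels' protocols, RNA from frozen tissue (the same text, on ear, stands beside the pituitary samples) was extracted with a column kit and turned into biotin-labelled cDNA. How background was corrected, probes were summarised and arrays were normalized is not given in the sources used here. Intensities were log2 transformed with no pseudocount and not normalized again. Symbols come from the platform annotation, updated by gene ID through a RefSeq table (GRCm38.p6), in which all 19572 matched.

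Comparisons used limma 3.58.1 in R 4.3.3 (lmFit, eBayes, two-sided, Benjamini-Hochberg over the 19572 probe sets, threshold 0.05), with the 9 arrays of a tissue in 1 fit (6 residual degrees of freedom) and all 18 arrays for comparisons between tissues (12). It was tested on simulated data. Log2 fold changes carry standard errors, whose median over all probe sets was 0.21 in pituitary, 0.26 in skin and 0.24 between tissues. The number of arrays limits the precision. Nothing in the labels says that replicates are separate mice, so the p-values reflect only how these samples scatter, and that scatter may be technical.

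The 5 genes and the gene and marker lists were chosen with earlier results of these data known. Named besides them are list members past the threshold (up to 4 per list and comparison by smallest p), the 3 genes most like each in pattern, and, chosen after their values were seen, Ugdh, Caln1, Aig1, the neighbours in gene order and the genes just outside the threshold. Some list members were not analysed here. The alternatives were quantile normalization, centring on the median, a floor and a pseudocount of 16, a filter on dim probe sets (above 32 on at least 3 arrays), a variance trend with robust estimation, other arrays or probe sets in the fit, and leaving out each array in turn. The floor changes the dim probe sets of a fit, and can end the call of a gene whose own values lie above 16.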

Additional observations from a re-analysis of the deposited data

Results flagged for a closer look

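Adtrp moved in opposite directions in the tissues, with every knockout array of pituitary below every wt array and every knockout array of skin above every wt array. The log2 fold change of lncKO against wt was -1.86 in pituitary and 1.25 in skin, and that of miR-205 KO against wt was -1.49 in pituitary and 0.90 in skin. The difference between the tissues was not tested, because the pituitary comparisons chose the gene. Y-linked genes were high on the pituitary arrays and near background on the skin arrays, so tissue and sex of the animals cannot be told apart here. Both knockouts of a tissue share its wt arrays.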

How the results depend on the processing

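Leaving out dim probe sets removed Tnr from the skin tests, so that 1 of the genes passed in place of 2 in lncKO skin and likewise 1 in miR-205 KO skin against wt skin. The count of the 5 genes past the threshold stayed within 1.5 times its value under the other alternatives. The Adtrp call in skin held in all 15 alternatives in both knockouts (adjusted p 3.41e-04 to 0.00863 in lncKO and 0.00187 to 0.0362 in miR-205 KO) and the Tnr call in all 14 that kept it. Single values changed sign in comparisons where the gene did not pass. With single arrays left out, Baalc in lncKO against miR-205 KO pituitary ranged between -0.49 and 0.09 (0.09 without lncKO array 15, 0.05 without miR-205 KO array 18) and Tnr between -0.02 (without array 18) and 0.28. In skin, Cabp7 in lncKO against wt ranged between -0.18 (without lncKO array 4; -0.03 without wt array 1) and 0.32, Cabp7 in miR-205 KO against wt between -0.01 (without array 8) and 0.29, and Baalc in miR-205 KO against wt between -0.54 and 0.08 (without wt array 2). In lncKO against miR-205 KO skin, Uxs1 ranged between -0.31 and 0.12 (without array 6; 0.07 without 8), Cabp7 between -0.32 and 0.18 (without array 6; 0.09 without 8) and Tnr between 0.00 (without array 7) and 0.12, and with a floor of 16 Cabp7 became 0.04 and Tnr 0.00. The cause was not tested. No paired analysis was possible because no sample number recurs between groups. With 3 arrays per group, differences near the standard errors given cannot be seen, and for probe sets near an intensity of 16 the background sets the limit.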
